A study of Rattus norvegicus with 24 samples.

Results

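The effect of the lysine deacetylase inhibitor (KDACi) Givinostat (Giv) without cytokines was examined at 24 h by comparing the 3 arrays of the group 24h_Giv_Ctrl with the 3 arrays of the group 24h_Ctrl. Arrays were chosen by the group given in their labels, which took 6 of the 24 arrays of the series. All arrays were one-colour Agilent rat miRNA arrays of INS1 cells, a line from a rat insulinoma that is used in culture in place of pancreatic β-cells. The series holds 8 groups of 3 arrays, 4 at 6 h and 4 at 24 h: untreated cells (Ctrl), cells with cytokines (Cyt, IL-1β at 150 pg/ml together with IFN-γ at 0.1 ng/ml), with Givinostat alone (Giv_Ctrl) or with both (Giv_Cyt).

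Cells of both groups had been in culture for 48 h. The 24h_Giv_Ctrl cells then received 125 nM Givinostat, followed 1 h later by medium without cytokines for 24 h. The 24h_Ctrl cells received neither Givinostat nor cytokines and were collected at the same time. The description of the series calls the arrays of a group technical replicates, whereas the methods call them replicates. It is therefore not settled whether they come from separate cultures, and p-values measure only the spread between these samples, which may be technical.

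Lysine deacetylases remove acetyl groups from histones and other proteins, and their inhibition changes the transcription of many genes, among them genes that carry miR hairpins. A miR pairs with its target mRNAs mainly through its seed, so miRs with the same seed can repress overlapping sets of mRNAs. In β-cells, miR-375 and miR-7a are abundant regulators of insulin secretion and cell growth, and the let-7, miR-29 and miR-30 families are expressed in many tissues.

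The sequences below belong to the miRs on which the description turns: those with the largest separated differences, those that reached significance in the study's own type of test, the brightest miR and the let-7, miR-29 and miR-30 families described below. They are the mature RefSeq sequences (GRCr8), 5′ to 3′, with the seed (bases 2 to 8) in capitals. Of the 135 miRs measured in these groups, 123 had an entry in that table. The miRs without one were miR-30b-5p, miR-30d-5p, miR-124-3p, miR-151-5p, miR-301a-3p, miR-328a-3p, miR-335, miR-344a-3p, miR-352, miR-378b, miR-598-3p and miR-764-5p. The miR-30 members with an entry share their seed with miR-384-5p:
miR-30a-5p: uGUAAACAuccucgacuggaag
miR-30c-5p: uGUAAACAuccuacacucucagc
miR-30e-5p: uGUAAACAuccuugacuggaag
miR-384-5p: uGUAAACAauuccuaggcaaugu
The miR-23 paralogs have a seed of their own and differ from each other at 1 position:
miR-23b-3p: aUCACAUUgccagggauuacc
miR-23a-3p: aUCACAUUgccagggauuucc
The miR-29 family has another seed, and miR-29a-3p and miR-29c-3p differ at 1 position:
miR-29a-3p: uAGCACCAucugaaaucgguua
miR-29b-3p: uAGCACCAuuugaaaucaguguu
miR-29c-3p: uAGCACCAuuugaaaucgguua
Of the let-7 family, the members shown are those whose groups did not overlap and the 1 member above 0:
let-7e-5p: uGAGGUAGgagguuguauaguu
let-7i-5p: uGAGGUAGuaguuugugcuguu
let-7d-5p: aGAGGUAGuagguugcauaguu
miR-98-5p: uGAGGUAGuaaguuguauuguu
let-7f-5p: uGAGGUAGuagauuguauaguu
The remaining miRs shown each have a seed that none of the above shares:
miR-22-3p: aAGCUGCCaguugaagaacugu
miR-7a-5p: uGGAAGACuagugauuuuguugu
miR-96-5p: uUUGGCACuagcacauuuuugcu
miR-340-5p: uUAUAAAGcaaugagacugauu
miR-3099: uAGGCUAGaaagagguugggga

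Each array carried 16 spots for each of 758 miRs. An array counted a miR as well above background if the scanner software had marked 8 or more of the 16 spots so, and a miR was measured if this held on all 3 arrays of at least 1 of the 2 groups. By this rule 135 miRs were measured, 125 of them in both groups, 7 in the controls alone and 3 in the Givinostat group alone. On none of the 6 arrays were 600 miRs well above background, and 23 were so on 1 or 2 arrays of a group at most. For 0 miRs were all arrays of one group above background and all arrays of the other at background.

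The number of miRs well above background was 148, 150 and 134 on control arrays 1, 2 and 3 and 135, 142 and 136 on Givinostat arrays 1, 2 and 3. These counts overlapped between the groups, with means of 144 ± 8.72 and 138 ± 3.79 (SD, n = 3) and p = 0.4 in a two-sided exact permutation test. Array brightness was taken as the 75th percentile of background-subtracted intensity among the 117 miRs that all 24 arrays detected, and was 347, 271 and 347 in the controls and 303, 452 and 435 with Givinostat. Givinostat arrays 2 and 3 were thus the brightest of the 6, and array 1 lay among the controls. The means were 322 ± 44.1 and 396 ± 81.6 (SD, n = 3), with p = 0.3 in the exact permutation test, where 3 arrays against 3 allow no p below 0.1. The 6 arrays had 0 saturated miR spots. Precision is limited throughout by there being 3 arrays a group.

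Slide and treatment were partly confounded. The 3 control arrays and Givinostat array 1 lay on slide 4, and Givinostat arrays 2 and 3 lay on slide 3. A within-slide value, Givinostat array 1 minus the mean of the 3 controls, is therefore given beside the main results. For the difference between Givinostat arrays 2 and 3 and the controls, slide and treatment cannot be told apart.

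The label of the cells was checked against marker miRs. Of the 4 β-cell markers on the array, 2 were measured, miR-7a-5p and miR-375-3p, while miR-7b and miR-184 were at background on all 6 arrays. The summed linear signal of the 4 was 2986, 2925 and 3291 on the control arrays and 3430, 3212 and 3373 on the Givinostat arrays, and miR-7a-5p was the brightest of them on each. The sums of the groups overlapped. Of the 4 muscle markers 1 was measured, miR-206-3p, and the other 3 were at background; their summed signal was 267, 291 and 261 in the controls and 272, 269 and 246 with Givinostat.

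Markers of the remaining cell types were not measured. The liver marker miR-122-5p was at background on all 6 arrays (53.1, 55.7 and 53.04 in the controls and 56.7, 52.7 and 51.3 with Givinostat). All 7 blood markers were at background, with sums of 348, 344 and 343 and of 338, 334 and 342, the brightest being miR-223-3p. The 2 acinar markers were as well, with sums of 83.0, 83.4 and 85.9 and of 84.3, 83.6 and 85.1, the brightest being miR-217-5p. Of the 5 markers of fibroblasts and stroma 4 were at background on all arrays, and miR-214-3p, the brightest, was above it on some; their sums were 247, 254 and 255 and then 259, 252 and 242. The sums overlapped between the groups except for the blood markers, whose Givinostat arrays were all below the controls though each marker was at background.

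In the test on array means, in which limma compared the averages of the 16 spots over arrays, 0 of 758 miRs (0%) passed an adjusted p below 0.05 and an absolute log2FC above 0.1375 after 24 h of Givinostat. The smallest adjusted p from limma was 0.405, and 32 of 758 miRs (4.22%) had an unadjusted p below 0.05. The study's type of test, limma's pooled correlation over the spots, called 3 miRs (0.396%), miR-96-5p, miR-340-5p and miR-3099. The log2FC of the 135 measured miRs, as Givinostat minus control, ran from -0.26 for miR-1949 to 0.37 for miR-30b-5p, with a median of -0.02. All differences are of RNA in bulk cultures, where fewer cells of a type and less RNA per cell cannot be told apart.

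The size of the signal difference that could have been missed is shown by the 95% intervals. For 134 of the 135 measured miRs (99.3%) the interval of the log2FC lay inside -1 to 1, the exception being miR-466b-3p. These limits are 2-fold in normalized signal, from which no background was subtracted. The methods of the study hold that a fold on the array normally stands for a much larger one by qRT-PCR. The intervals therefore do not bound the change in RNA, and folds given below are of signal. For 100 of them (74.1%) it lay inside -0.5 to 0.5, and for 19 (14.1%) inside -0.25 to 0.25. The median SE of the measured miRs, 0.13, was close to the study's log2FC threshold of 0.1375, so differences of that size could be missed.

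**Figure D1:**
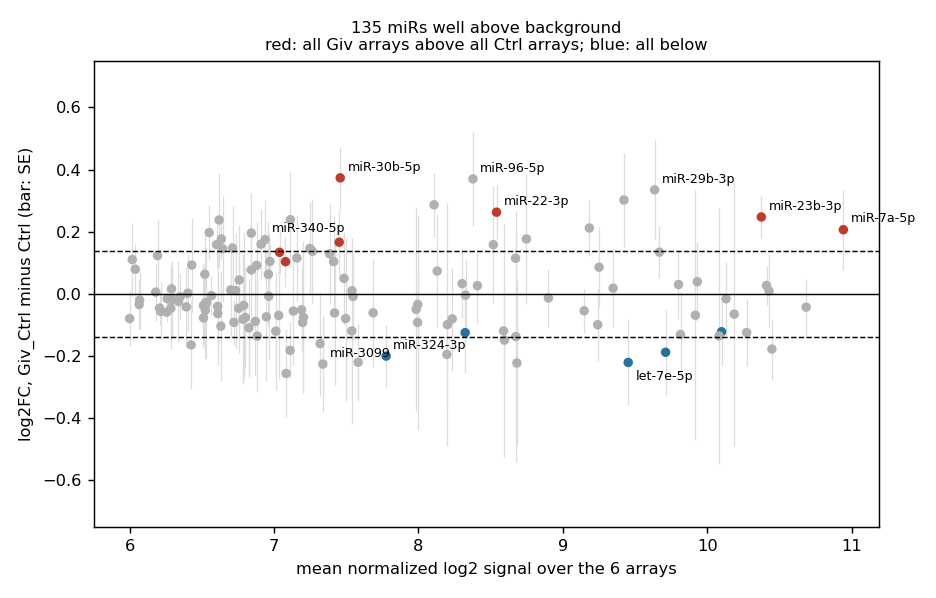
Log2FC of the 135 measured miRs (Givinostat minus control, vertical axis, bars are SE) against their mean normalized log2 signal (horizontal axis), with dashed lines at the log2FC threshold of 0.1375. Red points are the 7 miRs whose Givinostat arrays all lay above all control arrays, blue points the 5 whose arrays all lay below, and 0 of the 135 passed the test on array means.

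Of the measured miRs, 57 (42.2%) had a log2FC above 0, against 357 of all 758 (47.1%), and 37 (27.4%) lay past 0.1375 in absolute size, 23 of them higher (17%) and 14 lower (10.4%). Past that size lay 38 of all 758 miRs (5.01%), 24 of them higher (3.17%) and 14 lower (1.85%). An unadjusted p below 0.05 was reached by 8 measured miRs (5.93%), which were all higher with Givinostat, against 18 of all 758 (2.37%) that reached it and were higher. They were miR-30b-5p, miR-23b-3p, miR-22-3p, miR-129-2-3p, miR-30c-5p, miR-96-5p, miR-27b-3p and miR-325-3p, and the last 2 had 0.090 and 0.032 within slide 4 against 0.21 and 0.20 over all 3 arrays. The groups did not overlap for 12 of the 135 (8.89%), of which 7 were higher (5.19%) and 5 lower (3.7%). Over all 758 miRs they did not overlap for 77 (10.2%), 36 higher (4.75%) and 41 lower (5.41%).

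miR-30b-5p, a member of the miR-30 family, gave 7.29, 7.09 and 7.44 as normalized log2 signal on control arrays 1, 2 and 3, and 7.44, 7.67 and 7.83 on Givinostat arrays 1, 2 and 3. This miR, miR-23b-3p and miR-22-3p were picked for groups that do not overlap and an unadjusted limma p below 0.05. Their separation was thus fixed by the choice and is no evidence of an effect. The highest control array and the lowest Givinostat array of miR-30b-5p were equal to 2 decimals, and its highest values were on the slide 3 arrays. Its log2FC was 0.37 (SE 0.099, 95% interval 0.16 to 0.58), a 1.30-fold difference, with an limma adjusted p of 0.405. Within slide 4 the value was 0.17, and with slide as a fixed block it was 0.19.

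miR-23b-3p, on chromosome 17 from 7351749 to 7351765 (rn4) and inside Aopep in the gene table, gave 10.22, 10.15 and 10.37 on the control arrays and 10.41, 10.51 and 10.57 on the Givinostat arrays. Each Givinostat array was above each control, array 1 on the shared slide included, as the choice of this miR required. The log2FC was 0.25 (SE 0.066), a 1.19-fold difference, with an limma adjusted p of 0.405, and within slide 4 it was 0.16. Its paralog miR-23a-3p was well above background on 1 control array and 3 Givinostat arrays, with a difference in measured signal of 0.079 (SE 0.083). How far probes for paralogs that differ at 1 position read each other was not tested.

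miR-22-3p, known as a repressor of the deacetylase Hdac4, lies on chromosome 10 from 62782783 to 62782800 (rn4), between Wdr81 and Tlcd2. Its signal was 8.43, 8.29 and 8.51 in the controls and 8.58, 8.66 and 8.77 with Givinostat. All 3 Givinostat arrays lay above all controls, which the choice of this miR required as well. The log2FC was 0.26 (SE 0.088), a 1.20-fold difference, with an limma adjusted p of 0.657, and 0.17 within slide 4.

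The brightest miR of these cells was miR-7a-5p, a miR enriched in endocrine pancreas that restrains insulin secretion and β-cell growth. Its signal was 10.76, 10.81 and 10.95 in the controls and 11.01, 11.05 and 11.08 with Givinostat. The groups did not overlap, and the Givinostat arrays lay close together. The log2FC was 0.21 (SE 0.13, limma adjusted p = 0.992) and 0.17 within slide 4. The next brightest miRs in the controls, let-7a-5p, let-7b-5p, miR-24-3p and let-7f-5p, had log2FC of -0.043, -0.18, 0.0092 and 0.027. Each of them overlapped between the groups.

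Among the lower miRs, let-7e-5p (chromosome 1 from 56487152 to 56487169, rn4) gave 9.56, 9.64 and 9.49 in the controls and 9.36, 9.29 and 9.38 with Givinostat. All 3 Givinostat arrays were below all controls, by a log2FC of -0.22 (SE 0.14, limma adjusted p = 0.992) and by -0.20 within slide 4. For miR-324-3p the values were 7.96, 7.87 and 7.79 and then 7.70, 7.61 and 7.72, again without overlap, with a log2FC of -0.20 (SE 0.10). The other lower miRs without overlap were let-7i-5p (-0.19), miR-98-5p (-0.13, its closest arrays equal to 2 decimals) and let-7d-5p (-0.12), all of the let-7 family. Of the higher ones, miR-30d-5p (0.17), miR-129-1-3p (0.13) and miR-7a-2-3p (0.10) also did not overlap. miR-324-3p, miR-1949, miR-466b-3p and members of families that are named beside their lists were singled out after their values were seen.

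**Figure D2:**
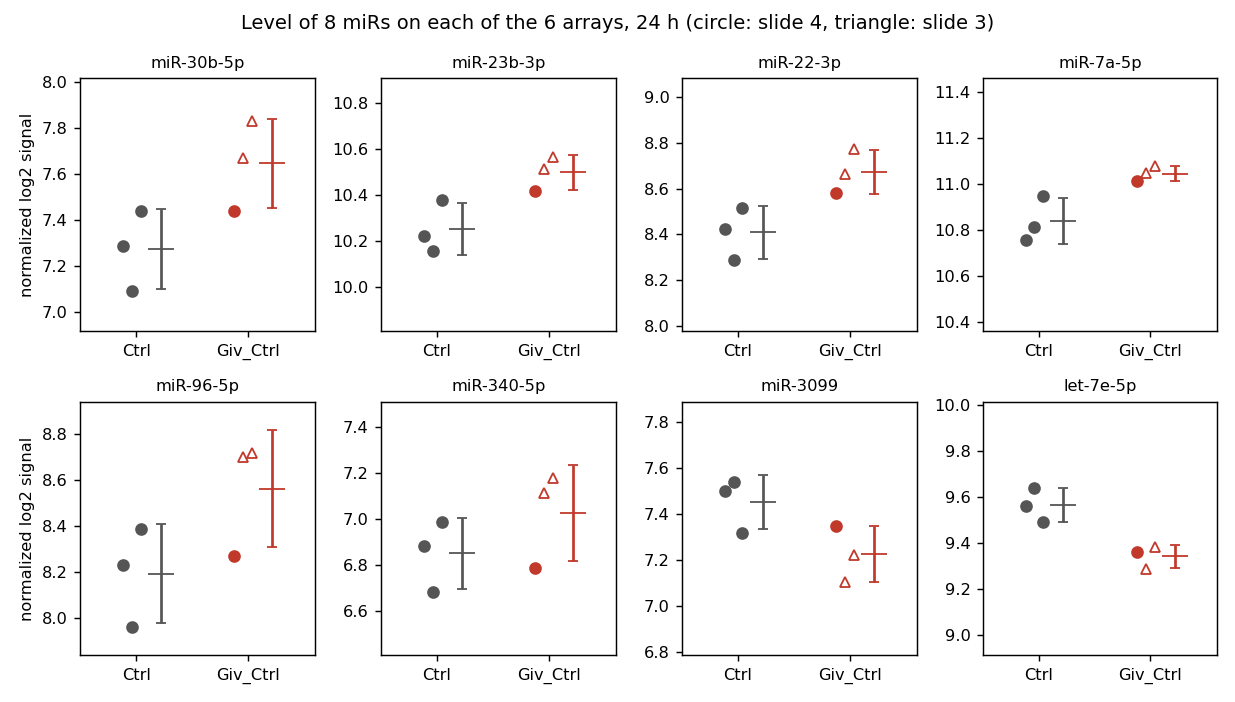
Normalized log2 signal (vertical axis, 1.1 log2 units in every panel) of 8 miRs on each control (grey) and Givinostat (red) array at 24 h; circles are arrays of slide 4, triangles of slide 3, and bars beside them are mean and SD. miR-30b-5p, miR-23b-3p, miR-22-3p and miR-7a-5p lie higher and let-7e-5p lower on every Givinostat array than on any control. The first 3 were picked for groups that do not overlap. miR-96-5p, miR-340-5p and miR-3099 overlap.

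The 3 miRs that the pooled correlation test called did overlap between the groups. miR-96-5p, which acts on proteins of insulin granule release in β-cells and lies on chromosome 4 from 57074917 to 57074936 (rn4), gave 8.23, 7.96 and 8.39 in the controls and 8.27, 8.70 and 8.72 with Givinostat. Both slide 3 arrays were above all controls, and Givinostat array 1 lay between the controls. The log2FC was 0.37 (SE 0.15), with an limma adjusted p of 0.977 over array means and 9.59e-11 in the pooled correlation test. Within slide 4 the log2FC was 0.076.

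miR-340-5p, whose gene lies inside Rnf130, gave 6.88, 6.68 and 6.99 in the controls and 6.79, 7.11 and 7.18 with Givinostat. Again the slide 3 arrays were the highest and Givinostat array 1 was below 2 of the controls. The log2FC was 0.17 (SE 0.13, limma adjusted p = 0.992 over array means and 0.000268 in the pooled correlation test), and it turned to -0.064 within slide 4 and to -0.029 with slide as a fixed block. miR-3099, whose gene lies between Usp29 and Peg3, gave 7.50, 7.54 and 7.32 and then 7.35, 7.10 and 7.22. Givinostat array 1 was above control array 3, and the other Givinostat arrays were below all controls. Its log2FC was -0.23 (SE 0.15, limma adjusted p = 0.992 and 0.00427 in the same order) and -0.10 within slide 4.

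These 3 miRs had a small spread over the spots of an array. The SD over the 16 spots within an array was 0.16 for miR-96-5p, 0.088 for miR-340-5p and 0.16 for miR-3099, against a median of 0.34 over the 135 measured miRs. For the miRs with the largest separated differences it was greater: 0.87 for miR-30b-5p, 0.60 for miR-23b-3p and 1.05 for miR-22-3p, and 1.91 for miR-7a-5p. The adjusted p of miR-30b-5p, miR-23b-3p, miR-22-3p and miR-7a-5p in limma's pooled correlation test was 0.994. The SD does not separate spot noise from differences between probe sequences of a miR, and its part in the calls was not tested.

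Each Givinostat array was also set against the mean of the 3 controls over the 135 measured miRs. On array 1, on the slide of the controls, the differences had an SD of 0.11 over the miRs, and 26 miRs lay past 0.1375, 14 above and 12 below. On array 2 the SD was 0.16, with 46 miRs past it (23 above and 23 below). On array 3 the SD was 0.27, with 89 past it (46 above and 43 below). The 2 arrays on the other slide thus lay further from the control mean than the array on the same slide. From controls 1, 2 and 3, Givinostat array 3 differed by a median of 0.156, 0.298 and 0.144 in absolute log2 signal. Givinostat array 2 differed by 0.120, 0.172 and 0.087, and Givinostat array 1 by 0.112, 0.094 and 0.092. Array 3 was thus further than array 1 from each control, and array 2 from each but control 3. Controls 2 and 3, on 1 slide, differed by 0.17. Pearson's r between 2 arrays over the 135 miRs, which do not vary independently, ran from 0.954 (control 2 and Givinostat 3) to 0.995 (controls 1 and 3).

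**Figure D3:**
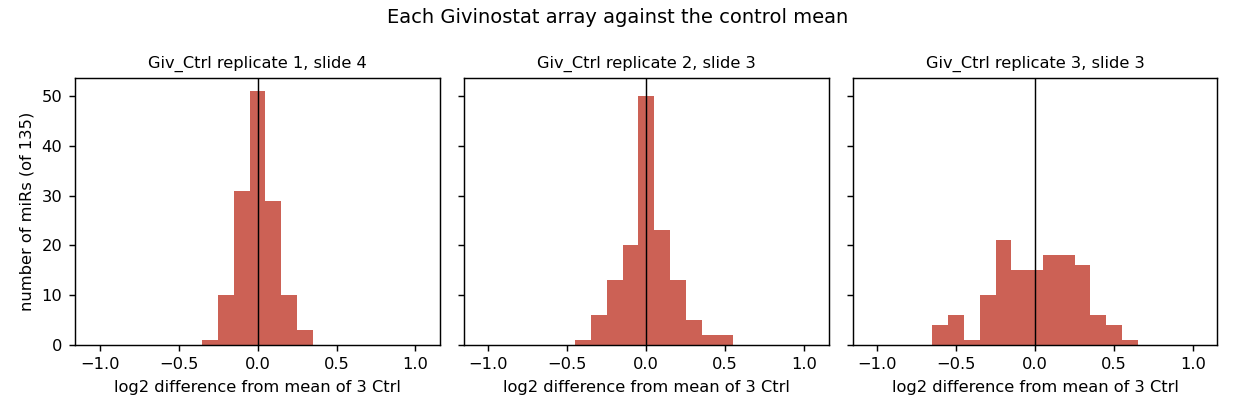
Number of the 135 measured miRs (vertical axis) by the log2 difference of each Givinostat array from the mean of the 3 controls (horizontal axis), 1 panel an array. The spread is smallest for array 1 on slide 4 (SD 0.11) and wider for arrays 2 and 3 on slide 3 (SD 0.16 and 0.27).

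Calls of list members given from here on are those of the test on array means unless another test is named. Among miR families, the miR-30 family, which is linked to the epithelial state of islet cells, had 5 of 5 members measured and 0 called. All 5 were above 0 under every scaling of the arrays and within slide 4. Members of a family are not separate observations, since miR-30a-5p and miR-30e-5p, for example, differ at 1 position. How far their probes read each other was not tested, nor was it for the let-7 and miR-29 families below. The median log2FC was 0.20, against -0.02 over all measured miRs, and 0.11 within slide 4. The members were miR-30b-5p, miR-30a-5p (0.24, SE 0.15), miR-30e-5p (0.20, SE 0.13), miR-30c-5p (0.18, SE 0.066) and miR-30d-5p (0.17, SE 0.10). In the controls miR-30d-5p was the brightest of them (mean 7.37, against 7.27 for miR-30b-5p). With Givinostat miR-30b-5p was brighter (mean 7.64 against 7.53). The signal of miR-30d-5p was 7.40, 7.24 and 7.47 in the controls and 7.48, 7.48 and 7.64 with Givinostat. Its groups were separated by less than 0.01, and on the slide 3 array 3 it was highest. miR-384-5p, which has the same seed, overlapped between the groups, with a log2FC of 0.10 (SE 0.15), and turned to -0.058 within slide 4.

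Members of the let-7 family, repressors of growth and cell-cycle genes, lay mostly lower. All 8 listed members were measured and 0 were called; 7 had a log2FC below 0 and 1 above, let-7f-5p, with a median of -0.12. The median was below 0 under every scaling, although it was -0.015 with 4 of 8 members above 0 when no normalization was applied, where the median of all measured miRs was 0.10. Within slide 4 all 8 were below 0, with a median of -0.11. let-7i-5p, for example, gave 9.86, 9.80 and 9.76 in the controls and 9.60, 9.57 and 9.68 with Givinostat. Its 3 Givinostat arrays were all lower, including the one on the shared slide. Without normalization the log2FC turned to 0.010 for let-7i-5p and to 0.12 for miR-98-5p, which for the processed signal scaled to all miRs was 0.016. Over the 9 measured miRs with this seed, which add let-7g-5p, the median was -0.12, and it was above 0, at 0.010, without normalization.

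The miR-29 family, which represses extracellular matrix genes and the monocarboxylate transporter Mct1 in β-cells, had 3 of 3 members measured, 0 called and all 3 above 0 under every scaling. The median log2FC was 0.30, but within slide 4 it was 0.021 and miR-29c-3p was below 0 there (-0.097). miR-29b-3p gave 9.39, 9.32 and 9.70 in the controls and 9.49, 9.93 and 9.99 with Givinostat. The slide 3 arrays were above all controls and array 1 was among them. The log2FC was 0.33 (SE 0.16) for miR-29b-3p, 0.30 (SE 0.15) for miR-29a-3p and 0.16 (SE 0.19) for miR-29c-3p.

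Of the islet miRs 4 of 8 on the array were measured and 0 called, with 3 above 0 and a median of 0.13 that was positive under every scaling and 0.14 within slide 4, although 2 members changed sign there. They were miR-7a-5p, miR-7a-2-3p, miR-204-5p (0.16, SE 0.076, and -0.00032 within slide 4), which represses the insulin gene activator Mafa, and miR-375-3p. The signal of miR-375-3p, a regulator of insulin secretion and β-cell mass, was 10.17, 9.999 and 10.25 in the controls and 10.30, 9.96 and 10.11 with Givinostat. The groups overlapped fully, with a log2FC of -0.016 (SE 0.12, 95% interval -0.27 to 0.24) and 0.16 within slide 4. Neuronal miRs, several of which β-cells share, had 8 of 15 members measured, 6 above 0, 0 called and a median of 0.12, which was 0.0085 within slide 4. Of the 6, miR-124-3p was measured through the Givinostat group alone, being above background on 2 control arrays, so the filter favoured a value above 0.

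Within the neuronal list, the arms of the miR-129 hairpins lay on different sides. miR-129-2-3p gave 7.996, 7.80 and 8.10 in the controls and 8.08, 8.20 and 8.48 with Givinostat. Givinostat array 1 lay just below the highest control and the others above it, with a log2FC of 0.29 (SE 0.10). miR-129-5p, which both hairpins yield, had a log2FC of -0.12 (SE 0.13) and was above 0, at 0.078, without normalization. Both miR-129-1-3p and miR-129-2-3p stayed above 0 within slide 4 (0.080 and 0.12).

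miRs of a genomic cluster can be compared in the same way, since they may be processed from 1 transcript. On chromosome 17, miR-23b-3p (0.25), miR-27b-3p (0.21, SE 0.089) and miR-24-3p (0.0092) lie between 7351018 and 7351749 (rn4, starts of the probes), and miR-24-3p also has a copy beside miR-23a-3p on chromosome 19. The list of miR-23, miR-24 and miR-27 had 4 of 5 members measured, 0 called, all 4 above 0 and a median of 0.15. Of these, miR-23a-3p was measured through the Givinostat group alone, so the filter favoured a value above 0. Within slide 4 the median was 0.054, with 3 of 4 above 0, and 2 of 4 were above 0 when the median of detected miRs was subtracted. On chromosome 4, miR-96-5p (0.37) lies next to miR-183-5p, whose log2FC was -0.0043 (SE 0.11). The miR-183 cluster had 3 of 3 members measured, 2 above 0 and 0 called over array means, while the pooled correlation test called miR-96-5p. Its median was 0.0099, and it was -0.0076 within slide 4. The median was -0.11 when the 75th percentile of detected miRs in the processed signal was used for scaling.

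**Figure D4:**
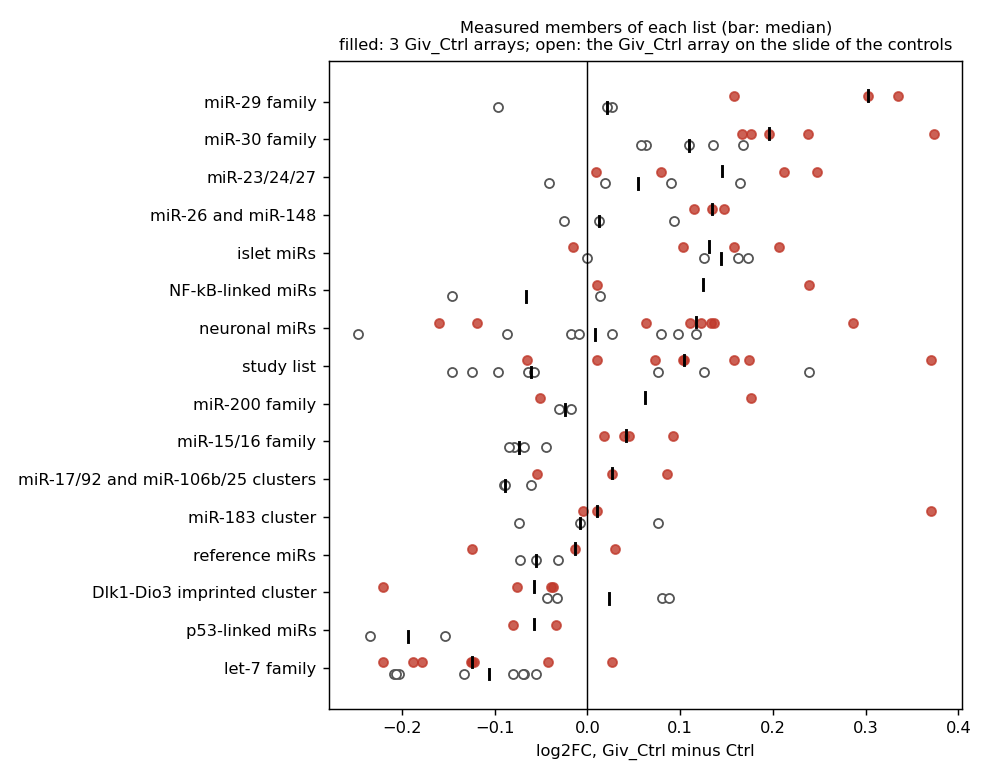
Log2FC (horizontal axis, Givinostat minus control) of the measured members of each list (vertical axis), from all 3 Givinostat arrays (red) and from the Givinostat array on the slide of the controls alone (open), with the median as a bar. The miR-30 members lie above 0 in both, with medians of 0.20 and 0.11; the miR-29 members have medians of 0.30 and 0.021, and the let-7 members of -0.12 and -0.11, the latter -0.015 without normalization.

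Lists tied to inflammation, stress and the cell cycle had 0 called members as well. Of the miRs linked to NF-κB 2 of 4 were measured, miR-21-5p and miR-146b-5p, with a median of 0.12. This median turned to -0.066 within slide 4 and to -0.016 with array brightness as a covariate. miR-21-5p gave 7.06, 6.87 and 7.05 in the controls and 7.01, 7.28 and 7.41 with Givinostat, the slide 3 arrays being the high ones (log2FC 0.24, SE 0.15, and 0.013 within slide 4). The p53-linked miRs had 2 of 6 measured, both below 0, with a median of -0.057 that turned to 0.023 for the processed signal scaled to all miRs and to 0.11 without normalization, and was -0.19 within slide 4. The brighter of them, miR-192-5p, had a log2FC of -0.081 (SE 0.17).

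The miR-15/16 family, which restrains cell division, had 4 of 6 members measured, all above 0, with a median of 0.042. This median turned to -0.073 within slide 4, to -0.011 for the processed signal scaled to the detected miRs and to -0.0041 with their median subtracted. With slide as a fixed block it was -0.019, with 1 of 4 members above 0. With array brightness as a covariate it was -0.075, with 0 of 4 above 0. The members miR-16-5p and miR-195-5p of this family had log2FC of 0.039 (SE 0.13) and 0.093 (SE 0.15). The miR-17 and miR-106b clusters, which promote proliferation, had 3 of 11 members measured, 2 above 0, and a median of 0.026. The median was -0.066 for the processed signal scaled to the detected miRs and -0.088 within slide 4. It was -0.042 with slide as a fixed block and -0.057 with array brightness as a covariate. The brightest measured member of these clusters was miR-106b-5p (0.086, SE 0.13).

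Of the miR-26 and miR-148 list, miRs that support insulin transcription, 3 of 5 were measured, all above 0, with a median of 0.13 and of 0.013 within slide 4. miR-26a-5p (0.13, SE 0.084) was its brightest member and miR-148b-3p (0.15, SE 0.14) had the largest difference. The miR-200 family, which keeps epithelial cells in their state by repressing Zeb1 and Zeb2, had 2 of 5 measured, 1 above 0, with miR-141-3p at 0.18 (SE 0.21); the median of 0.063 was -0.021 for the processed signal scaled to the detected miRs and -0.024 within slide 4. Of the miR-181 family 0 of 4 were measured.

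The imprinted Dlk1-Dio3 cluster, the largest list, had 4 of 41 members measured and 34 at background on all 6 arrays. The 4 were below 0, with a median of -0.057 that was 0.068 without normalization, 0.018 for the processed signal scaled to all miRs and 0.024 within slide 4. With array brightness as a covariate the median was 0.035. The list is not the whole locus, since it lacks at least the measured arms miR-134-3p, miR-485-3p and miR-1188-3p. With the first 2, which have probe positions beside the 4, the median of 6 was -0.061 and 0.050 within slide 4. The brightest was miR-494-3p, at 7.66, 7.75 and 7.67 in the controls and 7.66, 7.30 and 7.45 with Givinostat. Givinostat array 1 equalled control 1 to 2 decimals and the slide 3 arrays were lower (log2FC -0.22, SE 0.12). Scaling by the median of detected miRs moved the median log2FC of all 758 miRs to -0.20 and that of the measured miRs to -0.09, against -0.0031 and -0.02 after quantile normalization. The median of the measured miRs was -0.13 for the processed signal scaled to the detected miRs, 0.046 for that scaled to all miRs and 0.097 without normalization.

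The study's list of 13 miRs was chosen by the study on these samples, so its direction is not independent evidence. At 24 h without cytokines 8 of the 13 were measured and 0 called over array means, with 7 above 0 and a median of 0.10. The pooled correlation test called miR-96-5p and miR-340-5p of this list. Within slide 4, 3 of 8 were above 0 and the median was -0.061. Apart from miR-96-5p and miR-340-5p above, the measured members were miR-29c-3p, miR-384-5p, miR-7a-2-3p, miR-652-5p (0.073, SE 0.18), miR-146b-5p (0.011, SE 0.18) and miR-466b-2-3p (-0.065, SE 0.42).

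miR-7a-2-3p differs from the others of that list in its spread. It gave 7.01, 6.99 and 7.08 in the controls and 7.15, 7.13 and 7.11 with Givinostat. The 3 Givinostat arrays were above all controls by a small step, a log2FC of 0.10 (SE 0.080), and the array on the shared slide was the highest. miR-466b-2-3p, of a repeat-rich cluster inside Sfmbt2, had the largest SE of the measured miRs (0.42) and gave 10.28, 10.48 and 9.90, and then 10.46, 10.34 and 9.66. Array 3 was the lowest in each group.

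The remaining 5 members of the study's list were at background on all 6 arrays, so their differences are differences in measured signal and no fold is read from them. For miR-146a-5p, a feedback inhibitor of NF-κB signalling, the signal was 5.49, 5.44 and 5.44 in the controls and 5.45, 5.43 and 5.50 with Givinostat. The groups overlapped, with a difference of 0.0037 (SE 0.032). The differences were 0.15 for miR-101a-3p, 0.069 for miR-140-5p, 0.076 for miR-455-5p and -0.090 for miR-3584-5p. For miR-3584-5p alone of these the groups did not overlap, the Givinostat arrays lying at 5.72, 5.74 and 5.72 and the controls at 5.83, 5.83 and 5.80.

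The measured reference miRs of the study's qRT-PCR and their relatives overlapped between the groups. Of 5 on the array 3 were measured, with 1 above 0 and a median of -0.013, which was -0.055 within slide 4, 0.13 without normalization and -0.18, with 0 of 3 above 0, for the processed signal scaled to the detected miRs. miR-103-3p gave 9.83, 9.67 and 9.85 in the controls and 9.75, 9.83 and 9.86 with Givinostat, which overlap (0.030, SE 0.11). The log2FC was -0.013 (SE 0.094) for miR-107-3p and -0.12 (SE 0.11) for let-7c-5p. miR-423-5p and miR-423-3p were at background on all 6 arrays, with differences in measured signal of 0.0092 and 0.032.

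Some of the smallest p-values of all 758 miRs belonged to miRs at background. Among those at background in both groups, the smallest were those of miR-3590-3p, miR-336-3p and miR-223-5p, with differences in measured signal of -0.059 (SE 0.017), 0.056 (SE 0.016) and -0.056 (SE 0.017). Their arrays did not overlap between the groups, and their limma adjusted p was 0.405 each. miR-3590-3p, for example, lay at 5.38, 5.42 and 5.39 in the controls and 5.33, 5.35 and 5.33 with Givinostat. The spread at low signal was small: the median SE was 0.028 over all 758 miRs and 0.13 over the measured ones.

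The differences were also set against the base composition of the miRs. Across the 123 measured miRs with a sequence, which are not independent replicates and share arrays, Pearson's r between GC content and log2FC was -0.24. For single Givinostat arrays against the control mean it was 0.043 for array 1, -0.31 for array 2 and -0.19 for array 3. For each control against the mean of the others it was -0.16, 0.11 and -0.024, near array 3 at its lowest and short of array 2. The r of -0.24 was -0.075 with slide as a fixed block and -0.089 with brightness as a covariate. The 48 miRs with a GC content below the median of 45.5% had a median log2FC of -0.0013 and the other 75 of -0.034. The part of base composition, array brightness or slide in the differences of single miRs was not tested.

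Whether the effect at 24 h differed from that at 6 h was tested with a limma term, for which the comparisons share no arrays. The 3 arrays of 6h_Ctrl and arrays 2 and 3 of 6h_Giv_Ctrl lay on slide 2. Array 1 of 6h_Giv_Ctrl lay on slide 1, so slide and treatment cannot be told apart for it. Its brightness was 682, against 401 and 311 for arrays 2 and 3 and 416, 320 and 279 for the controls. At 6 h without cytokines, limma called 0 miRs on array means (0%), 34 (4.49%) reached 0.05 unadjusted, and 5 (0.66%) were called by the pooled correlation test. In the term itself 0 miRs were called (0%) and 17 (2.24%) had an unadjusted p below 0.05. The pooled correlation test called 3 in it (0.396%), miR-96-5p, miR-340-5p and miR-743b-5p. The smallest p among measured miRs was that of miR-325-3p, with a log2FC of 0.20 (SE 0.088, and 0.032 within slide 4) at 24 h and -0.083 at 6 h, a difference of 0.28 (SE 0.12, limma adjusted p = 0.998). Next were miR-125a-5p (0.033 and -0.24, a difference of 0.27, SE 0.16) and miR-30b-5p (0.37 and 0.14, a difference of 0.23, SE 0.14).

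In the presence of cytokines at 24 h, limma on array means called 1 miR for the addition of Givinostat (0.132%), miR-146a-5p. Its log2FC was 0.16 (limma adjusted p = 0.0394), and it was well above background on all 3 arrays of both cytokine groups. An unadjusted p below 0.05 was reached by 38 miRs (5.01%), and the pooled correlation test called 24 (3.17%). The arrays of 24h_Cyt lay on slides 1 and 2 and those of 24h_Giv_Cyt on slides 3 and 4, so slide and treatment cannot be told apart there. miR-146a-5p was no longer called with slide as a fixed or random block, with the replicate block, with brightness as a covariate, with the compared groups or the detected miRs alone, and for the median of the spots and the deposited table. Nor was it called with normexp correction, with the processed signal scaled to all miRs, without normalization, or on leaving out 12 of the 24 arrays in turn. The difference itself was 0.13 with the fixed and 0.16 with the random block of slide, 0.16 with the replicate block and 0.18 with brightness. It was 0.16 for the median of the spots, the deposited table, the compared groups alone and the detected miRs alone. For the processed signal scaled to all miRs it was 0.47, and without normalization 0.18. With normexp correction it was 0.10, below the log2FC threshold, at a limma adjusted p of 0.00746. On leaving out an array it ran from 0.13 to 0.19. The call was kept in the pooled correlation test, with the mean foreground signal, an intensity trend and the median of detected miRs subtracted, and for the processed signal scaled to detected miRs (0.77, limma adjusted p = 1.38e-05). These settings concern the array call alone. The study also measured this miR by qRT-PCR in the same cell line. There it reports that Givinostat raised the cytokine-induced level at the later times and lowered it at the earliest. Those measurements were not analysed here. The term for the difference between the effects without and with cytokines called 0 miRs (0%), with 39 (5.15%) at an unadjusted p below 0.05 and 22 (2.9%) called by the pooled correlation test.

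The smallest p-values in that term among measured miRs were those of miR-325-3p, miR-146a-5p and miR-30b-5p. miR-325-3p had 0.20 without and -0.23 with cytokines, a difference of 0.43 (SE 0.12, limma adjusted p = 0.760). For miR-146a-5p, measured in the cytokine groups alone, it was 0.0037 and 0.16, a difference of -0.16 (SE 0.046), with the same adjusted p. For miR-30b-5p it was 0.37 and -0.072, a difference of 0.45 (SE 0.14, limma adjusted p = 0.784). Values without cytokines were thus above those with cytokines for miR-325-3p and miR-30b-5p and below for miR-146a-5p, and none of the 3 terms passed the adjustment over array means. In other settings limma called the term for miR-325-3p in the pooled correlation test (adjusted p = 0.0223) and for miR-146a-5p with the processed signal scaled to detected miRs (-0.77, adjusted p = 0.00157).

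The families described above had these values side by side. The median over the miR-30 members was 0.20 at 24 h, 0.056 at 6 h and -0.044 with cytokines at 24 h, and over the miR-29 members it was 0.30, 0.056 and -0.21. Over the let-7 members it was -0.12, -0.21 and 0.024. For miR-7a-5p the log2FC was 0.21, 0.33 and -0.10, and for let-7e-5p -0.22, -0.37 and 0.044. The differences of these medians were not tested, and those of the single miRs did not pass the adjustment over array means.

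**Figure D5:**
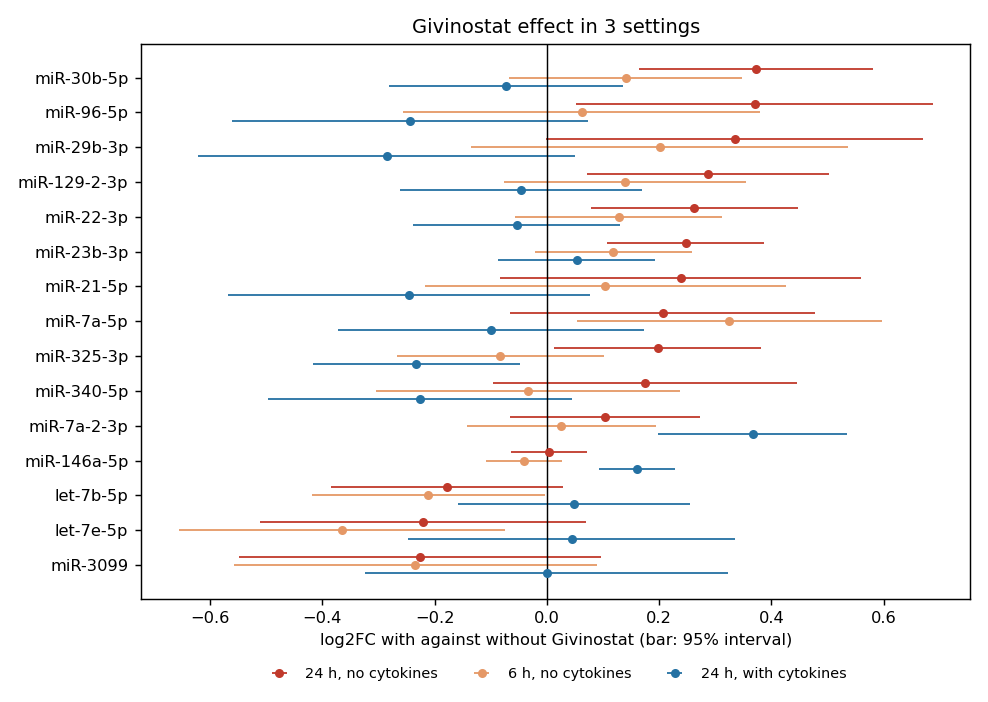
Log2FC with against without Givinostat (horizontal axis, bars are 95% intervals) of 15 miRs (vertical axis). Red is 24 h without cytokines, orange 6 h without cytokines and blue 24 h with cytokines. miR-146a-5p was at background without cytokines, where its values are differences in measured signal. For miR-30b-5p the 3 values are 0.37, 0.14 and -0.072, and for let-7e-5p -0.22, -0.37 and 0.044.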

How the data were processed

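The authors deposited 1 scanner file per array with the linear intensity of each spot, not normalized between arrays, written by Agilent Feature Extraction (version 10.7.3.1 per the file headers, 9.1 per the submitters' processing notes). They also deposited a table of log2 values, 1 per miR and sample, which differs by a median of 2.63e-10 from the median of a miR's quantile-normalized spots and by 0.0135 from their mean. Probe positions are on rn4.

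Of each spot in these files the median foreground was used with no background correction, 434 negative and 281 positive control spots were removed, and all 24 arrays were quantile-normalized and log2-transformed, as in the methods of the study. The mean of the 16 spots of a miR was taken for each of 758 miRs. The functions lmFit and eBayes of limma 3.58.1 (R 4.3.3) were fitted to the 24 arrays with a mean for each of 8 groups and 16 residual degrees of freedom. A miR was called at a Benjamini-Hochberg adjusted p below 0.05 over all miRs and an absolute log2FC above 0.1375, which is 1.1-fold. The main test was changed from the study's pooled correlation over spots (0.0373), since the spots of an array share their RNA. The members and the lists were chosen with earlier results of these data known.

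Being well above background required the software's mark on 8 or more of 16 spots. Named miRs were, first, up to 10 measured miRs in each direction with the largest log2FC among those with separate groups and an unadjusted p below 0.05, and those called by the pooled correlation test. To these were added 3 miRs at background with the smallest p, the 5 brightest, the brightest and the most different measured member of each list, up to 3 per interaction term, and the study's and the reference lists. Alternatives were another unit of test, spot summary, foreground, background correction, scaling, filter, variance model and table, slide and replicate blocks, the compared groups alone, no log2FC threshold and leaving out each array. Array brightness as a covariate and a 1.15-fold threshold, which the study gives in words, were chosen after seeing the data. The fit was tested on simulated data. Mature sequences and neighbouring genes came from RefSeq tables of GRCr8, from which no coordinates were taken. Python 3.11.15 with matplotlib 3.10.9 drew the figures. Experiments of the study other than the arrays were not analysed.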

Additional observations from a re-analysis of the deposited data

How the results depend on the processing

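Values in this section are log2FC of Givinostat minus control at 24 h without cytokines unless another comparison is named. Of 1055 values of the 63 named miRs under alternatives other than leaving out an array, 97 had the reversed sign, and 30 miRs kept their sign throughout. Most reversed values were of miRs whose log2FC was near 0. Some scalings shifted most miRs together. With the median of detected miRs subtracted, 5.94% of all 758 miRs lay above 0, and without normalization 89.6% of the measured miRs did. Signs reversed under these scalings are therefore not read as changes of single miRs. Nor are the counts of 587 and 594 called miRs given below for that subtraction.

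Within slide 4, which leaves Givinostat array 1 alone and so changes both slide and number of arrays, the sign was reversed for miR-340-5p (-0.064), miR-24-3p (-0.041), let-7f-5p (-0.069), miR-141-3p (-0.030), miR-106b-5p (-0.061), miR-16-5p (-0.079), miR-195-5p (-0.045), miR-148b-3p (-0.025), miR-466b-2-3p (0.24), miR-146a-5p (-0.011) and miR-652-5p (-0.12). It was also reversed for miR-29c-3p (-0.097), miR-101a-3p (-0.0050), miR-140-5p (-0.043), miR-384-5p (-0.058), miR-146b-5p (-0.15), miR-103-3p (-0.032), miR-375-3p (0.16), miR-204-5p (-0.00032), miR-466b-3p (0.19) and miR-206-3p (0.0014). Slide as a fixed block reversed miR-340-5p (-0.029), miR-24-3p (-0.083), let-7f-5p (-0.053), miR-106b-5p (-0.042), miR-16-5p (-0.061), miR-466b-2-3p (0.18), miR-652-5p (-0.11), miR-146b-5p (-0.025), miR-423-5p (-0.0024), miR-103-3p (-0.060) and miR-466b-3p (0.11). Slide as a random block reversed miR-24-3p (-0.0070).

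With array brightness as a covariate, reversed values were those of miR-24-3p (-0.036), let-7f-5p (-0.0075), miR-16-5p (-0.069), miR-195-5p (-0.023), miR-466b-2-3p (0.20), miR-125a-5p (-0.014), miR-146a-5p (-0.0044), miR-140-5p (-0.0071), miR-384-5p (-0.038), miR-146b-5p (-0.13), miR-103-3p (-0.0067), miR-375-3p (0.046) and miR-466b-3p (0.14).

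Among the scalings, subtracting the median of detected miRs reversed miR-336-3p (-0.16), miR-24-3p (-0.062), let-7f-5p (-0.0028), miR-183-5p (0.0039), miR-16-5p (-0.068), miR-195-5p (-0.0049), miR-146a-5p (-0.20), miR-101a-3p (-0.031), miR-140-5p (-0.11), miR-455-5p (-0.11), miR-423-5p (-0.17), miR-146b-5p (-0.045), miR-107-3p (0.011), miR-423-3p (-0.17) and miR-103-3p (-0.054). Without normalization these were let-7a-5p (0.015), miR-129-5p (0.078), miR-183-5p (0.19), miR-192-5p (0.063), miR-466b-2-3p (0.032), miR-146a-5p (-0.017), miR-107-3p (0.20), miR-375-3p (0.057), let-7i-5p (0.010), miR-98-5p (0.12) and miR-206-3p (0.026). Scaling the processed signal by its 75th percentile over detected miRs reversed miR-24-3p (-0.17), let-7f-5p (-0.17), miR-16-5p (-0.21), miR-125a-5p (-0.069), miR-423-5p (-0.19), miR-146b-5p (-0.043) and miR-103-3p (-0.18). Scaling by that of all miRs reversed miR-183-5p (0.070), miR-16-5p (-0.031), miR-103-3p (-0.0047), miR-107-3p (0.11), miR-423-5p (-0.014) and miR-98-5p (0.016).

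The median of the spots and the deposited table gave the same reversed values: miR-183-5p (0.019), miR-146a-5p (-0.0018), miR-103-3p (-0.0068), miR-107-3p (0.0067) and miR-375-3p (0.018). The mean foreground signal and normexp correction each reversed miR-146a-5p (-0.0091 and -0.0073). Leaving out 1 array at a time gave ranges that crossed 0 for miR-24-3p (-0.062 to 0.062), let-7f-5p (-0.00024 to 0.075), miR-183-5p (-0.029 to 0.030), miR-106b-5p (-0.0010 to 0.18), miR-466b-2-3p (-0.23 to 0.18), miR-125a-5p (-0.042 to 0.093), miR-146a-5p (-0.018 to 0.020) and miR-652-5p (-0.051 to 0.29). It did the same for miR-146b-5p (-0.071 to 0.089), miR-103-3p (-0.026 to 0.062), miR-107-3p (-0.087 to 0.031), miR-423-5p (-0.000077 to 0.016), miR-375-3p (-0.11 to 0.067) and miR-466b-3p (-0.30 to 0.12).

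For 30 more of the 63 miRs, leaving out 1 array kept the sign but moved the log2FC over 1.5-fold. The ranges were miR-340-5p (0.091 to 0.29), miR-223-5p (-0.069 to -0.036), let-7a-5p (-0.074 to -0.023), miR-129-5p (-0.17 to -0.056), miR-129-2-3p (0.17 to 0.37), miR-141-3p (0.036 to 0.30), miR-30d-5p (0.10 to 0.22), miR-16-5p (0.0070 to 0.098), miR-195-5p (0.018 to 0.16) and miR-192-5p (-0.15 to -0.0034). Further ones were miR-21-5p (0.15 to 0.35), miR-26a-5p (0.052 to 0.23), miR-148b-3p (0.054 to 0.23), miR-494-3p (-0.31 to -0.14), let-7c-5p (-0.17 to -0.054), miR-325-3p (0.11 to 0.28), miR-29c-3p (0.087 to 0.29), miR-101a-3p (0.065 to 0.22), miR-140-5p (0.014 to 0.13) and miR-384-5p (0.052 to 0.18). The last were miR-455-5p (0.026 to 0.11), miR-423-3p (0.015 to 0.045), miR-30a-5p (0.12 to 0.31), miR-30c-5p (0.11 to 0.23), miR-30e-5p (0.093 to 0.28), miR-27b-3p (0.13 to 0.29), miR-204-5p (0.096 to 0.24), let-7d-5p (-0.16 to -0.039), miR-1949 (-0.37 to -0.13) and miR-206-3p (-0.20 to -0.040). The other 19 miRs stayed within 1.5-fold.

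The count of 0 called miRs was 3 in limma's pooled correlation test and 1 for the processed signal scaled to detected miRs (miR-202-3p, at background on all 6 arrays, a difference in measured signal of -0.79), and it stayed 0 on leaving out any array. The difference in the number of miRs above background ran from -11.3 to -3.33 on leaving out an array, and that in brightness from 47.4 to 122. At 6 h the count went from 0 to 5 in the pooled correlation test. For the effect at 24 h minus that at 6 h it went to 3 there. For the effect without minus with cytokines it went to 22 there, to 5 for the processed signal scaled to detected miRs, to 1 without normalization and to 594 with the median of detected miRs subtracted.

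With cytokines the count of 1 went to 24 in the pooled correlation test, 4 for the processed signal scaled to detected miRs, 2 scaled to all miRs, 587 with the median of detected miRs subtracted and 2 by adjusted p alone. It was 0 for the median of the spots, normexp correction, the deposited table, a filter for detected miRs, a fixed or a random block of slide, the compared groups alone, brightness as a covariate and the higher fold threshold. Leaving out an array gave 0 to 2. An unchanged or higher count did not always hold miR-146a-5p: the 1 miR called without normalization was miR-3473, and those called for the processed signal scaled to all miRs were miR-370-3p and miR-762. On leaving out 24h_Cyt 3 or 24h_Giv_Cyt 3 it was miR-762, and on leaving out 24h_Giv_Cyt 2 miR-762 and miR-7a-2-3p.

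A replicate block, the pairing of arrays by replicate number, called 0 miRs in each comparison, with cytokines included. Whether replicate numbers pair the arrays is not settled. The correlations of deviations from the group mean were -0.44, 0.41 and 0.73 between arrays of the same number. Between arrays of different numbers they ran from -0.88 to 0.85. Deviations from a mean of 3 arrays depend on each other, so these values cannot decide it, and their cause was not tested.

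The data have limits that hold for every comparison. They are 3 arrays a group of an insulinoma line, with 1 dose of Givinostat, and whether the arrays come from separate cultures is not settled. Givinostat arrays 2 and 3 were on another slide than the controls. Most miRs of the array were at background. Changes below the 95% intervals given above could not be seen, and neither targets nor proteins were measured.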
